A study of Homo sapiens with 27 samples.

Results

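Transcript ends of A549R cells were compared with those of A549 cells after both had been treated with cisplatin. The comparison takes 6 of the 27 libraries of the series: the 3 of A549R and the 3 of A549 whose labels give cisplatin (100 µM) as the treatment and the cytosol as the RNA fraction. A549 is an established line of non-small cell lung cancer, and the series sets cisplatin-resistant against sensitive cells, and A549R is taken here as the resistant side of that design. The labels do not say how A549R was derived, whether it is 1 clone or how long cells were exposed. The 2 groups therefore share the drug, its dose, the fraction and the 3′-seq assay, in which poly(A)+ RNA is primed with oligo-dT so that reads pile up at RNA 3′ ends. The replicates carry numbers, but no label says that they were separate cultures, so p-values measure the spread between these libraries, which may be technical. Beside them stand 12 further libraries that this comparison does not use: 3 of A549R and 3 of A549 cytosol after the vehicle DMSO, and 6 of A549 heavy polysomes (mRNA that carries many ribosomes), 3 after DMSO and 3 after cisplatin.

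A gene can end its transcripts at more than one polyadenylation site. An end used early, often inside an intron, gives a short transcript, and an end in the last exon gives the full-length one, so counting reads at each end measures both how much RNA a gene makes and where that RNA stops. Cisplatin crosslinks DNA, which blocks transcription along a gene and triggers the DNA damage response, and resistant lines are known to differ from their parents in drug transport, repair and survival signalling. The series asks how intronic ends change relative to last exons in cisplatin response and resistance.

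Each library came as a list of peaks with a read count. Peaks that overlapped on a strand were merged over the 6 lists, which gave 142313 merged peaks, and the 22583 that stood in every list were tested. Such a merged peak is called an end below and named by its position in the human build hg19, which the lists fit. No annotation of that build was used here, so the ends carry no gene names, whether an end is intronic or in a last exon is not stated, and the gene lists and cell type markers set for this comparison were not evaluated. Levels are in the usual CPM unit, relative to a library's counts in tested ends, with TMM factors within each set of 6 libraries, and differences are log2, A549R minus A549, from edgeR's quasi-likelihood test. A called end has a Benjamini-Hochberg adjusted p under 0.05 over all 22583. In bulk RNA, fewer cells with an end and less of it per cell cannot be told apart.

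The 2 lines' lists were not of 1 kind, and this stands before every result. The A549R lists held 91128 to 103214 peaks of median width 57 to 62 bases, with total counts of 6171900 to 7222039. The A549 lists held 37673 to 48095 peaks of median width 112 to 116 bases, with total counts of 3739215 to 5484796. Peaks are numbered within a list, and the A549R lists kept 77.0% to 77.5% of their numbers (called long lists below) against 31.6% to 35.2% in A549 (short lists). Tested ends held 55.6% to 60.5% of the counts of A549R libraries and 91.3% to 92.6% of those of A549. List kind and line coincide here and cannot be told apart within these 6 libraries. A total of 35381 merged peaks stood in all A549R lists and in no A549 list, and 1151 stood in all A549 lists and in no A549R list. Of those 1151, 350 stood in at least 1 long list of A549 polysomes, 224 in at least 1 A549R DMSO list and 13 in all 3 of the latter. Those libraries are of another line or treatment, so they cannot show whether A549R lacked these peaks under cisplatin. The smallest count in each list was 5, so absence from a list need not be a count of 0 in either direction. Complete gains and losses are outside what was tested.

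The A549 polysome libraries hold both list kinds within 1 line. Replicate 3 of both treatments has a short list there and replicates 1 and 2 have long ones, so list kind coincides with the replicate number. An end is said to follow the list kind where its level in the short-list library was above both, or below both, long-list libraries by over 1 on the log2 scale (0.5 CPM added), in both treatments alike. In this rule, and in the polysome medians, counts and correlations below, an end that a list lacks was taken as 0 CPM. As absence need not be a count of 0, part of these differences can come from unlisted ends. Of all tested ends, 441 (1.95%) followed it with the higher level in long lists and 399 (1.77%) with the higher level in short lists. The name rests on polysome levels only, where list kind and replicate number cannot be told apart. The A549 cytosol lists are all short, whatever their replicate number.

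Under cisplatin, 183 of 22583 ends were called (0.81%), 111 higher in A549R (0.492%) and 72 lower (0.319%). The rises reached a log2 difference of 6.82 and the falls -4.41. The median difference of all tested ends was 0.01, and 11494 of them were above 0. Groups of 3 that did not overlap were found at 3868 of the tested ends (17.1%) and at all 183 called ones. Non-overlap under cisplatin is thus no added support for a called end. The number of calls rested on single libraries: it was 113, 79 and 509 without A549 replicate 1, 2 or 3, and 82, 118 and 197 without A549R replicate 1, 2 or 3. Of the 183, 66 were called with each library left out in turn. In the plot of difference against level, called rises spread over the whole range up to nearly 7 while most called falls lie above -2.

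**Figure D1:**
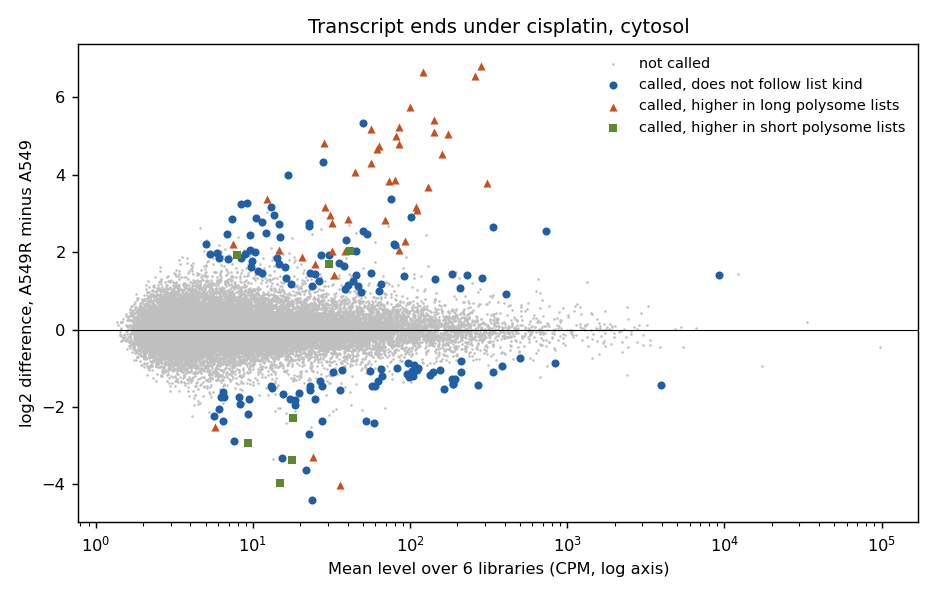
Log2 difference (A549R minus A549, y axis) against the mean level over the 6 cisplatin libraries (CPM, log axis) for the 22583 tested ends. Grey points are ends not called, blue circles are called ends that do not follow the list kind, and triangles and squares are called ends higher in long or in short polysome lists. Most called ends above 4 are triangles.

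Rises and falls differed in how often they followed the list kind. Of the 111 called rises, 38 (34.2%) were higher in long polysome lists, against 1.95% of all tested ends, and 3 were higher in short ones. Of the 72 called falls, 3 were higher in long lists and 4 in short ones. The share grew with the size of the rise: it was 38 of 108 rises over 1, 35 of 66 over 2, 25 of 32 over 3 and 17 of 19 over 4. The 38 had a median width of 649 bases and median levels of 7.58 CPM in A549 cytosol and 130 CPM in A549R cytosol. In A549's own polysomes the same 38 had median levels of 77.5 CPM in long lists and 3.24 CPM in short ones. The rule picks ends by these polysome levels, so this contrast follows from it and is no separate evidence. How far list kind accounts for their difference between lines was not tested. With all ends that follow the list kind left out of the fit, 177 of 21743 ends were called (0.814%), 94 higher (0.432%) and 83 lower (0.382%), so the excess of rises over falls was smaller.

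All but 1 of the 12 largest rises followed the list kind. The largest was at chromosome X, 39646158 to 39647466, minus strand. Its levels were 6.38, 2.75 and 6.12 CPM in the A549 libraries and 467, 701 and 513 CPM in those of A549R, a log2 difference of 6.82 ± 0.32 (SE, n = 3 and 3; edgeR adjusted p = 1.9e-07). In A549 polysomes it stood at 1090 to 1424 CPM in the 4 long lists and at 5.00 and 6.11 CPM in the 2 short ones, so libraries of A549 itself lay on both sides of the A549R values.

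The next, at chromosome X, 99410798 to 99411298, minus strand, had 1.86, 3.15 and 1.84 CPM in A549 and 211, 257 and 252 CPM in A549R, a log2 difference of 6.65 ± 0.27. A narrow end 336 bases away on the same strand, upstream of it at 99411634 to 99411697, differed by 0.19 (adjusted p = 0.898). So the wide end was far apart between the lines and its narrow neighbour was not. The same held at chromosome 12, 68946686 to 68947207, minus strand, where the wide end rose by 5.05 ± 0.22 and a neighbour 329 bases away differed by 0.03 (adjusted p = 0.988).

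The third rise, at chromosome 12, 118683875 to 118684825, plus strand, went from 5.32, 6.10 and 4.90 CPM to 440.3, 553 and 553 CPM, a difference of 6.55 ± 0.22. Its A549 polysome levels were 170.2 to 234 CPM in long lists, and the short lists held 1.47 CPM in one and did not list it in the other. The remaining ends of this kind among the 12, on chromosomes 5, 8, 10, 12, 13, 17 and 22, differed by 4.82 to 5.75. In the plot of the 12 largest rises, A549 cytosol and the short polysome lists lie together on the left, and A549R cytosol and the long polysome lists lie to the right of them, except at the end on chromosome 14. At 9 of the 11 ends that follow the list kind all 4 long polysome lists were below all 3 A549R libraries, and at the other 2 they were above.

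**Figure D2:**
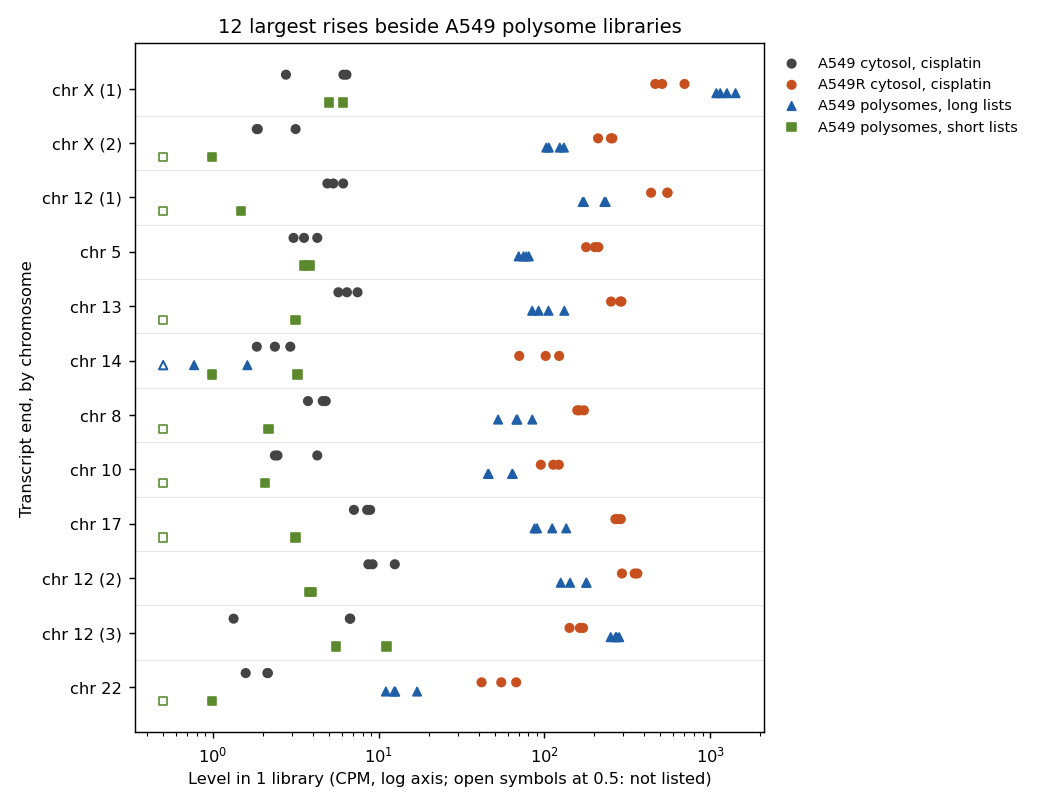
Level in single libraries (CPM, log axis) of the 12 largest rises, 1 line per end, numbered where a chromosome has several. Circles are the cytosol libraries compared, triangles and squares the A549 polysome libraries with long and short lists, and open symbols ends that a list lacks. At 11 of the 12 ends the long polysome lists of A549 lie above its cytosol libraries, at 9 of them still below A549R and at 2 above it.

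The exception, at chromosome 14, 80667890 to 80669208, minus strand, was the largest rise that did not follow the list kind. Its levels were 2.93, 2.36 and 1.84 CPM in A549 and 102, 123 and 70.5 CPM in A549R, with no overlap, a log2 difference of 5.35 ± 0.31 (adjusted p = 1.12e-06). In the DMSO libraries it stood at 3.29, 1.64 and 9.31 CPM in A549 and 90.3, 144 and 71.3 CPM in A549R, a difference of 4.55 ± 0.52 (adjusted p = 0.00364). None of the 6 A549 polysome libraries exceeded 3.23 CPM, long lists included. This end was thus low in every A549 library and high in every A549R library, with or without the drug.

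Of the 111 called rises, 70 did not follow the list kind in either direction. Their median difference was 1.89 and their median levels 11.0 CPM in A549 and 38.2 CPM in A549R. In A549 polysomes they stood at a median of 10.6 CPM in long lists and 12.6 CPM in short ones. These ends too were set apart by their polysome levels, so the likeness of these medians is no separate evidence. At 56 of the 70 the lowest A549R value lay above all 4 long polysome lists of A549, though those libraries are of another RNA fraction. The same held for 24 of the 38 rises that follow the list kind with the higher level in long lists, so it does not set the 70 apart. The 12 largest of them, chromosome Y left aside, were taken for description after values had been seen.

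The ends on chromosomes 9, 22 and 19 had all A549 cytosol libraries under all A549R ones in both treatments, as did some of the other ends described below. At chromosome 9, 132500608 to 132500974, minus strand, levels were 15.4, 11.8 and 44.7 CPM in A549 and 204, 165 and 165 CPM in A549R, a log2 difference of 2.91 ± 0.40 (adjusted p = 0.00358). The DMSO difference there was 3.39 ± 0.44 (adjusted p = 0.00819), and the A549 polysomes held 8.70 to 27.6 CPM. A549 replicate 3 was the highest of its group and still lay well under the lowest A549R library.

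On chromosome 22, 45828084 to 45828431, plus strand, levels were 2.93, 1.57 and 3.06 CPM in A549 and 20.8, 15.5 and 18.9 CPM in A549R, a difference of 2.89 ± 0.35 (adjusted p = 0.00122) beside 2.98 ± 0.36 in DMSO (adjusted p = 0.0052). At chromosome 19, 6677843 to 6678040, minus strand, A549 had 4.25, 2.95 and 11.0 CPM and A549R 28.6, 54.6 and 35.5 CPM, a difference of 2.75 ± 0.43 (adjusted p = 0.00923). Its A549 polysomes held 10.0 to 24.2 CPM, above the A549R DMSO library of 18.2 CPM in 2 of the 6. Without A549 replicate 2 the adjusted p of this end was 0.0649. Neither pair of groups overlapped.

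Others of the 12 had weaker support. The end at chromosome 12, 93517716 to 93518109, minus strand, rose by 4.34 ± 0.30, from 2.92, 3.15 and 1.53 CPM to 54.0, 45.4 and 60.1 CPM. Yet its cisplatin polysome levels in A549 were 18.1 and 23.1 CPM in the long lists, and the short list lacked it, so it resembled the ends that follow the list kind and missed the rule through 1 DMSO library. A narrow end 166 bases away on its strand differed by 0.22 (adjusted p = 0.797). The end at chromosome 15, 40772834 to 40773185, minus strand (3.98 ± 0.30), had a like pattern, with 16.1 and 14.4 CPM in the long cisplatin polysome lists and 0.98 CPM in the short one. At chromosome 17, 38652234 to 38652357, minus strand, the rise of 2.84 ± 0.49 had an adjusted p of 0.0585 without A549 replicate 1 and of 0.155 without A549 replicate 2.

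The remaining ones lay on chromosomes 1, 7 and 16. At chromosome 1, 168024983 to 168025545, minus strand, A549 had 3.19, 2.16 and 3.98 CPM and A549R 29.1, 16.5 and 26.4 CPM, a difference of 2.97 ± 0.35. In DMSO no A549 cytosol list held it, while the A549R libraries had 20.2 to 35.0 CPM. In A549 polysomes it stood at 10.6 to 18.2 CPM in 5 libraries and at 1.47 CPM in the other. The end at chromosome 7, 129049691 to 129050189, minus strand, rose by 3.24 ± 0.37, from 1.86, 1.18 and 1.84 CPM to 11.8, 15.7 and 18.4 CPM. Such A549 levels are near the smallest listed count of 5, so the size of this rise rests on few reads. The same limit holds for other named ends that are as low in 1 line. In DMSO cytosol the chromosome 7 end was likewise listed by all 3 A549R libraries and by no A549 library. In A549 polysomes it stood at 5.03, 6.14 and 6.62 CPM in 3 of the 4 long lists and in neither short list, so it too resembled the ends that follow the list kind. Of 3 ends on chromosome 16, that at 71423803 to 71424345, plus strand, rose by 3.16 ± 0.51 with an adjusted p of 0.0588 without A549R replicate 1, and that at 57290001 to 57290214, minus strand, rose by 2.77 ± 0.34.

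The third chromosome 16 end lay in a pair. At 28548484 to 28548997, minus strand, levels were 43.6, 64.1 and 172 CPM in A549 and 640.3, 709.9 and 396 CPM in A549R, a difference of 2.65 ± 0.42 (adjusted p = 0.0109). Its neighbour at 28549321 to 28549523 went from 1.33, 0.98 and 3.06 CPM to 14.9, 23.7 and 10.9 CPM, a difference of 3.26 ± 0.46 (adjusted p = 0.00468). Both ends of the pair were highest in A549R replicate 2 and, within A549, in replicate 3. The end at 28548484 lost its call without A549 replicate 2 (adjusted p = 0.0881) or A549R replicate 1 (adjusted p = 0.0567). The end at 28549321 lost it without A549 replicate 2 (adjusted p = 0.0554).

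Called ends of 1 direction lay within 5 kb of each other at 12 places, which hold 25 of the 183 calls. On chromosome 3, 2 ends on the plus strand at 118922767 to 118923288 and 118923580 to 118924093 rose together, from 12.8, 11.2 and 15.3 CPM to 75.2, 64.7 and 55.7 CPM in the first and from 3.19, 3.74 and 3.98 CPM to 18.1, 27.8 and 15.7 CPM in the second. On chromosome 22, the ends at 50964177 to 50964348 and 50968846 to 50969043, minus strand, rose by 2.47 ± 0.24 and 2.46 ± 0.37. The first of these had 13.6, 13.4 and 22.03 CPM in A549 and 87.2, 99.5 and 82.6 CPM in A549R. On chromosome 13, the ends at 73649841 to 73650193 and 73651443 to 73651683, plus strand, fell, from means of 29.8 ± 9.74 and 38.6 ± 15.7 CPM (SD, n = 3) to 9.48 ± 1.62 and 11.0 ± 3.00 CPM.

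Ends near a called end that were not called themselves were counted as well. Within 5 kb of the called rises that do not follow the list kind lay 23 such ends, and all 23 differed by more than 0, with a median of 0.96. Within 5 kb of the called falls of that kind lay 65, of which 44 were below 0 and 21 above, with a median of -0.37. These neighbours can belong to the same gene as the called end, so they are no separate evidence.

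The falls were led by an end that A549 cells showed after cisplatin and hardly after DMSO. At chromosome 17, 4935893 to 4936195, minus strand, levels were 28.2, 35.2 and 73.4 CPM in A549 and 2.41, 2.06 and 1.78 CPM in A549R, a log2 difference of -4.41 ± 0.42 (adjusted p = 0.000138). None of the 6 DMSO cytosol lists of either line held it. In A549 polysomes it had 87.7, 79.3 and 182 CPM after cisplatin, and after DMSO it was listed in 1 library of 3, at 0.77 CPM. Both list kinds held it in cisplatin polysomes, but the 182 CPM stood in the short list and the lower values in the long ones. The list-kind rule asks for a gap in both treatments, and the DMSO polysome lists nearly lacked this end. In cytosol the groups of the 2 lines did not overlap.

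At chromosome 6, 34187152 to 34187485, plus strand, A549 had 49.7, 33.4 and 37.9 CPM and A549R 3.28, 2.84 and 3.55 CPM, a difference of -3.64 ± 0.29 (adjusted p = 2.5e-05). In DMSO the A549 libraries held 30.3 to 52.2 CPM, and of the A549R libraries one did not list it and the others had 3.17 and 3.24 CPM. It was nearly missing from A549 polysomes, where 4 of the 6 libraries did not list it and the other two had 0.74 and 2.30 CPM.

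On chromosome 22, 24584844 to 24585080, plus strand, levels fell from 31.9, 20.9 and 30.9 CPM to 2.19, 1.55 and 4.74 CPM, a difference of -3.32 ± 0.39 (adjusted p = 0.000989), beside -4.62 ± 0.50 in DMSO (adjusted p = 0.00266). The A549 polysomes held 93.8 to 136 CPM of it, in long and short lists alike. At chromosome 5, 82876977 to 82877304, plus strand, A549 had 55.0, 39.4 and 24.2 CPM and A549R 8.09, 5.67 and 4.14 CPM, a difference of -2.71 ± 0.35 (adjusted p = 0.0023), and the DMSO difference was -3.38 ± 0.24 (adjusted p = 9.89e-05). At chromosome 15, 85198357 to 85198616, minus strand, A549 had 83.5, 109 and 107 CPM and A549R 19.02, 16.8 and 20.7 CPM, a difference of -2.41 ± 0.21 (adjusted p = 6.39e-05). Groups were apart at each of these ends.

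A lower-level member of the 12, at chromosome 12, 54449551 to 54449818, plus strand, fell by 2.88 ± 0.39 on the log2 scale, from 8.78, 15.7 and 15.3 CPM to 1.75, 1.55 and 2.07 CPM (adjusted p = 0.00291). No A549R DMSO list held it, whereas all 3 A549 DMSO lists did, at 4.48 to 7.36 CPM.

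Among the 12 largest falls, 3 lay within 5 kb of each other on the plus strand of chromosome 2, at 30480316 to 30480623, 30480779 to 30481151 and 30482630 to 30482899. Their differences were -2.93 ± 0.45, -3.96 ± 0.51 and -3.36 ± 0.50. A549 replicate 3 was the highest library at each, with 26.6, 49.0 and 54.8 CPM against 10.4 to 26.95 CPM in replicates 1 and 2, and A549R stayed between 1.29 and 5.03 CPM. All 3 followed the list kind with the higher level in short lists: in cisplatin polysomes the middle one had 2.90 and 7.06 CPM in long lists and 32.1 CPM in the short one. Without A549R replicate 1 the first and last of them had adjusted p of 0.0567 and 0.0588.

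The other 3 of the 12 went the opposite way, with the higher polysome level in long lists. At chromosome 17, 26694291 to 26694507, minus strand, A549 had 118, 73.8 and 10.4 CPM and A549R 6.34, 3.61 and 2.07 CPM, a difference of -4.03 ± 0.70 (adjusted p = 0.0202). The library numbered 3 was also the low one in A549 DMSO cytosol (6.89 CPM against 78.3 and 48.2). The same number was low in both sets of A549 polysomes (9.40 against 214.6 and 225 CPM after DMSO, 20.3 against 280.1 and 290 CPM after cisplatin). This call was lost without A549 replicate 2 or without any single A549R library (adjusted p of 0.0686 to 0.0777). The ends at chromosome 20, 43880876 to 43881062, minus strand (-3.29 ± 0.60), and at chromosome 17, 26725033 to 26725189, plus strand (-2.52 ± 0.52), also had their lowest A549 value in replicate 3. Both lost the call without A549 replicate 1 or 2 and without any single A549R library, with adjusted p of 0.0526 to 0.197.

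**Figure D3:**
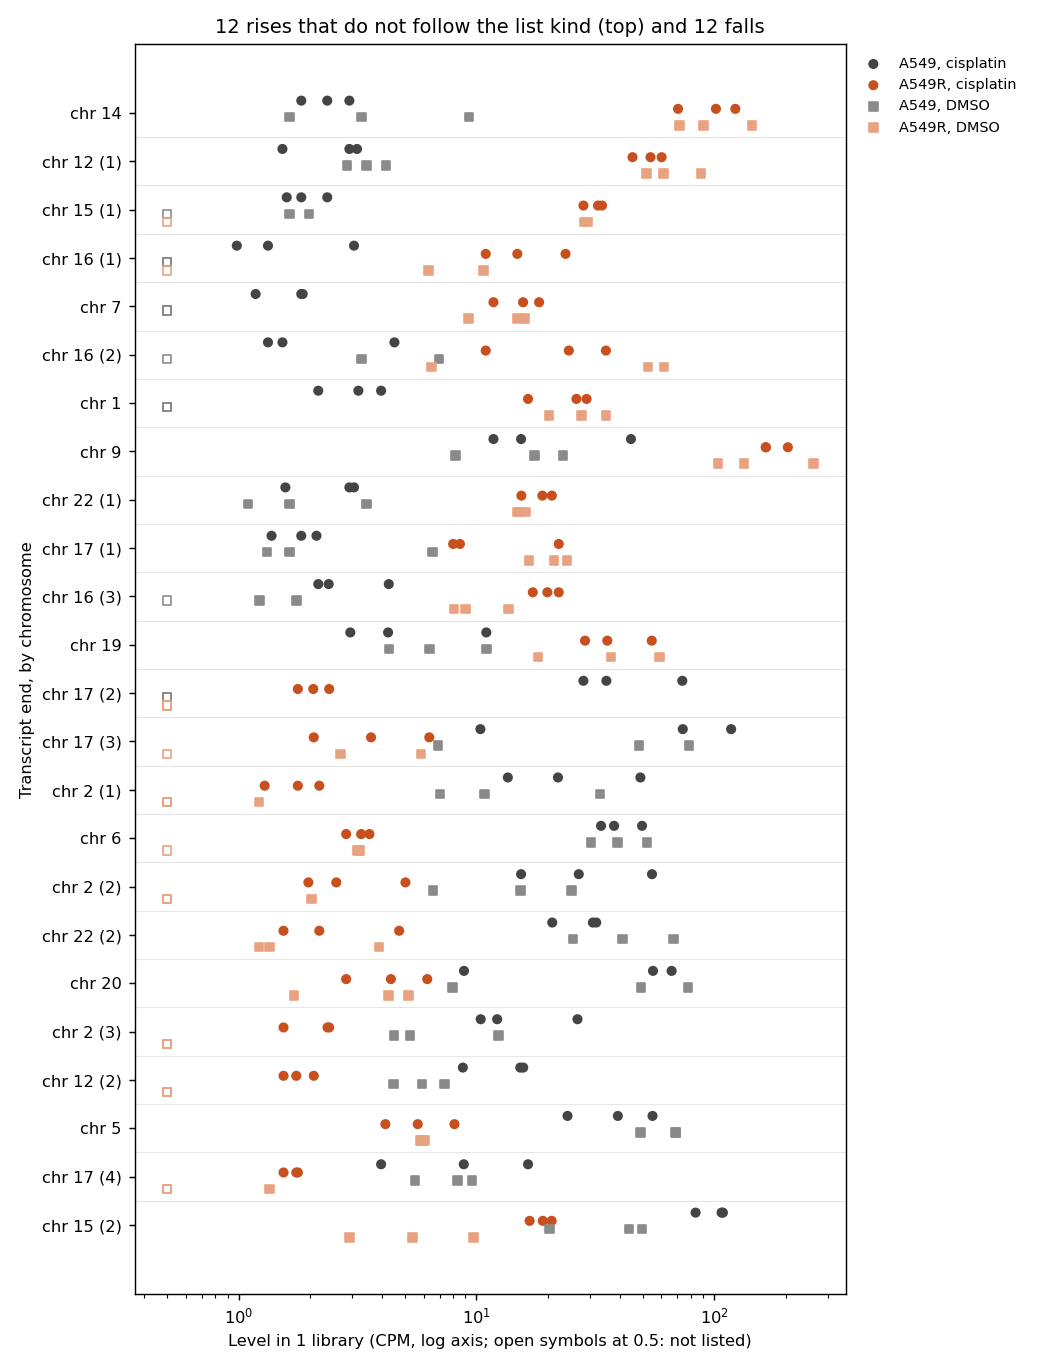
Level in single cytosol libraries (CPM, log axis) of the 12 largest rises that do not follow the list kind (upper lines) and of the 12 largest falls (lower lines), numbered where a chromosome has several ends. Circles are cisplatin and squares DMSO libraries, dark for A549 and orange for A549R, and open symbols are ends that a list lacks. In the cisplatin libraries the A549 and A549R values of an end do not overlap, which the choice of ends required.

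The called falls included narrow ends, at high and at low level. The strongest called fall, at chromosome 17, 22023947 to 22024064, plus strand, had 5980, 4715 and 6671 CPM in A549 and 1832, 2019 and 2624 CPM in A549R, a difference of -1.42 ± 0.19 (adjusted p = 0.00291). Including it, 14 of the 72 called falls were narrower than 130 bases, with differences of -1.10 to -1.79, and 4 of the called rises were. Of all tested ends, 18.5% were that narrow, so narrow ends were about as frequent among the called falls as among all tested ends.

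Of the other 13 narrow falls, each on a different chromosome, 12 rose and fell with that strongest end over all 18 A549 and A549R libraries, with Pearson's r of log2 levels above 0.9, against 7 of the 58 wider falls. The one that did not was at chromosome 17, 19505125 to 19505183, plus strand, with r of 0.42. Those on chromosomes 10 (37890353 to 37890395), 1 (238106954 to 238107051), 20 (55933482 to 55933524) and X (55207803 to 55207851), all minus strand, had r of 0.99 with it and stood at 4.65% to 4.84% of its level. The libraries differ in depth and fraction, and the falls were called in part of them, so these correlations are a description. Whether such ends hold reads of 1 RNA species placed at several like sequences was not tested. They are counted singly in the calls, places, pairs and chromosomes given here.

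The strongest called rise had a similar retinue. At chromosome 12, 52679669 to 52680280, minus strand, levels were 4866, 4865 and 5532 CPM in A549 and 10400, 13750 and 16250 CPM in A549R, a difference of 1.40 ± 0.19 (adjusted p = 0.00272). The DMSO difference was 1.42 ± 0.21 (adjusted p = 0.0184). Without A549 replicate 2 the cisplatin adjusted p was 0.0636. Narrow rises of 23 to 27 bases on chromosomes 14 (42845639 to 42845661), 1 (104606010 to 104606036) and 4 (37728219 to 37728243), all plus strand, differed by 1.41, 1.40 and 1.45. They stood at 2.49%, 0.485% and 0.248% of its level with r of 0.98, 0.99 and 0.93 over the 18 libraries.

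Other ends called at high level lay on chromosomes 5, 9, 16 and 19. At chromosome 5, 118309407 to 118310519, plus strand, A549 had 278, 239 and 130 CPM and A549R 963, 1007 and 1785 CPM, a difference of 2.54 ± 0.31 (adjusted p = 0.00122). In DMSO the same end had 1356, 1402 and 311 CPM in A549 and 1737, 1541 and 1584 CPM in A549R, a difference of 0.66 ± 0.43 (adjusted p = 0.493). A549 replicate 3 was the low cytosol library in both treatments. The polysome libraries numbered 3 held 145 CPM after DMSO and 129 CPM after cisplatin, where replicate 1 after DMSO had 134 CPM and the other long lists 471 to 525 CPM. No label says that equal numbers mark 1 culture across fractions.

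On chromosome 19, ends at 38795474 to 38795664, plus strand, at 3976041 to 3976716, minus strand, and at 36038013 to 36038433, plus strand, fell by 0.87 ± 0.17, 0.75 ± 0.15 and 0.93 ± 0.16 on the log2 scale. On chromosome 9, the end at 127115734 to 127115995, minus strand, rose by 0.91 ± 0.17, from 258, 263 and 326 CPM to 496.4, 483.7 and 613.4 CPM. Each of these 4 had small spread within groups, and each lost its call when single libraries were left out, with adjusted p of 0.0588 to 0.294: the end at 38795474 without A549 replicate 1 or 2 or A549R replicate 1 or 3, those at 3976041 and 36038013 without A549 replicate 1 or 2 or A549R replicate 1 or 2, and that on chromosome 9 without any one library other than A549 replicate 3.

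The same contrast in DMSO used 6 other libraries, with the same split of list kinds by line, and asked which line differences were there without the drug. Of the 16952 ends listed in all 12 cytosol libraries, 131 were called between A549R and A549 in DMSO (0.773%), 80 higher (0.472%) and 51 lower (0.301%). That count was 29 to 31 without A549 replicate 1 or 2 or A549R replicate 1 or 2, 681 without A549 replicate 3 and 266 without A549R replicate 3. Of the 111 ends called higher under cisplatin, 72 were listed in DMSO, all 72 were above 0 there and 44 were called. Their median difference was 1.95 under cisplatin and 1.67 in DMSO. Of the 72 called lower, 57 were listed, all 57 were below 0 and 20 were called, with medians of -1.41 and -1.11. These ends were picked by their cisplatin values, which by itself can make the cisplatin medians the larger ones in size. Leaving aside ends that follow the list kind, the counts were 52 of 52 above 0 with 29 called, and 55 of 55 below 0 with 20 called.

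**Figure D4:**
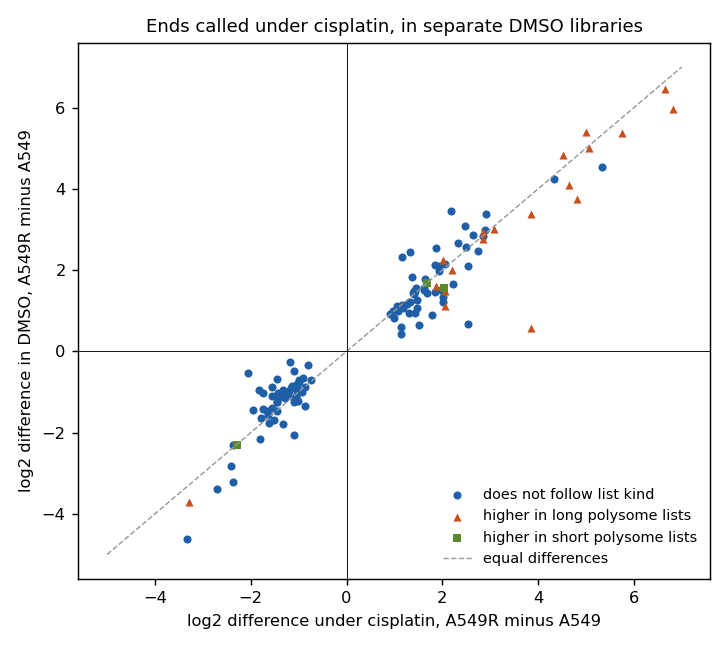
Log2 difference (A549R minus A549) in DMSO (y axis) against that under cisplatin (x axis) for the 129 called ends listed in all 12 cytosol libraries, with symbols for how an end follows the list kind in A549 polysomes. All points have the same sign on both axes and lie around the dashed line of equal differences.

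The change of the line difference between cisplatin and DMSO was tested itself, as an interaction over the 12 libraries. edgeR called 0 of 16952 ends at an adjusted p under 0.05, and 330 had an unadjusted p under 0.05 (1.95%). Of the 129 called ends in this test, 10 had an unadjusted p under 0.05, and none of these passes the correction. The 129 were called in cisplatin libraries that this test also uses, so their 10 cannot be set against the 330. The 3 named here were chosen after their values were seen. The smallest unadjusted p was at chromosome 12, 12264083 to 12264637, plus strand, which follows the list kind in A549 polysomes. Its line difference was larger under cisplatin by 3.29 ± 0.86. A549 had 169, 172 and 11.7 CPM there in DMSO and 8.46 to 13.8 CPM under cisplatin, all in short lists. The A549 DMSO replicate 3 thus stood at the cisplatin level. At chromosome 5, 118309407 to 118310519, it was larger by 1.87 ± 0.60. At chromosome 17, 38632075 to 38632438, minus strand, a called rise, the line difference was smaller under cisplatin by an interaction of -1.27 ± 0.47. The chromosome 17 end that leads the falls could not enter this test because no DMSO list held it.

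Ends were also compared with a stronger end within 50 kb downstream on the same strand, the nearest measure here to an early end relative to a last one, although a pair need not belong to 1 gene. Of 9478 such upstream pairs, 26 were called (0.274%), 14 with a higher share of the early end in A549R (0.148%) and 12 with a lower one (0.127%), and the median difference was -0.08. In mirror pairs, whose weaker end lies downstream, 36 of 7548 were called (0.477%), 14 higher (0.185%) and 22 lower (0.291%), with a median of 0.02. The median distance within upstream pairs was 6664 bases. The number of called upstream pairs was 16, 13 and 83 without A549 replicate 1, 2 or 3 and 14 without A549R replicate 1. It was 10 with all 12 cytosol libraries in 1 fit, 16 with a mean count of at least 20, and 17 with partners within 20 kb.

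Few called pairs came from the early end itself. The weaker, upstream end was called on its own in 6 of the 26 pairs, the stronger one in 15, and neither in 5. In 10 pairs one of the ends followed the list kind, and with such ends left out 17 pairs were called.

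Among pairs with a higher early share, the clearest lay on chromosome 22, plus strand, with ends at 24574440 to 24574648 and 24584844 to 24585080. The share of the upstream end in the pair was 14.3%, 19.1% and 15.8% in A549 and 75.6%, 64.7% and 65.2% in A549R, a log2 difference of 3.50 ± 0.39 (adjusted p = 0.000351). The upstream end itself differed by 0.20 and the downstream one by -3.32, so the share moved through the downstream end.

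On chromosome 19 the upstream end did move. The share of the end at 4237235 to 4237541, plus strand, was 8.42%, 8.66% and 14.7% in A549 and 54.5%, 46.8% and 38.0% in A549R, a difference of 2.89 ± 0.38 (adjusted p = 0.00167). The upstream end rose by 2.44 (adjusted p = 0.0116), whereas its partner at 4268802 to 4269092 differed by -0.44 (adjusted p = 0.483). Farther along, at 48948049 to 48948250, plus strand, the share was 0.904%, 1.14% and 2.52% in A549 and 8.25%, 8.67% and 13.1% in A549R, a difference of 2.83 ± 0.38 (adjusted p = 0.00238), with neither end called alone. A549 replicate 3 was the highest A549 library at both and did not reach A549R.

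The other 2 of the 5 largest were less clear. On chromosome 17, minus strand, the share of the end at 26726028 to 26726389 went from 8.66%, 12.4% and 44.3% to 54.0%, 72.6% and 85.4%, a difference of 3.67 ± 0.67, and its partner is the end at 26694291 that follows the list kind. On chromosome 1, minus strand, the share of the end at 238108761 to 238108799 went from 0.848%, 1.05% and 1.44% to 7.01%, 13.4% and 3.27%, a difference of 2.84 ± 0.47, and its partner is one of the narrow falls that move with the strongest one.

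The 5 largest falls of an early share were on chromosomes X and 12, and in each the weaker end differed by no more than 0.22 and the partner rose steeply. In 4 of them the partner followed the list kind. Those are the ends at chromosome X, 99411634 to 99411697, minus strand, whose mean share was 59.2% ± 16.4 in A549 and 1.59% ± 0.23 in A549R (SD, n = 3), at chromosome 12, 68947536 to 68947711, minus strand, and at chromosome 12, 104379375 to 104379452 and 104382294 to 104382658, plus strand, which share 1 partner. Their differences were -6.43 ± 0.47, -5.04 ± 0.50, -4.71 ± 0.48 and -4.65 ± 0.35. In the other, at chromosome 12, 93518275 to 93518320, minus strand, the mean share was 85.6% ± 5.49 in A549 and 24.96% ± 1.66 in A549R, a difference of -4.11 ± 0.35, and the partner is the end at 93517716 described above.

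The next in size was a fall of the early end itself. At chromosome 6, 34187152 to 34187485, plus strand, the share against the end at 34213229 to 34214016 was 7.02%, 4.25% and 4.40% in A549 and 0.296%, 0.267% and 0.399% in A549R, a difference of -4.07 ± 0.35 (adjusted p = 1.9e-05). The partner differed by 0.45 (adjusted p = 0.282). This pair was named after its values were seen, since it lies just outside the 5 largest.

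On some chromosomes the differences between the lines leaned one way. Whether such a lean spans a whole chromosome was not tested. On chromosome 22 the median difference of 498 tested ends was 0.47, 82.7% were above 0, and 13 ends were called higher and 2 lower. The chromosome held 1.49%, 1.54% and 1.57% of the counts in tested ends of A549 and 2.32%, 2.11% and 2.27% of those of A549R, with no overlap. In DMSO the median was 0.45. Its called end with the smallest p was at 31955616 to 31955985, plus strand, with 2.13, 1.57 and 2.14 CPM in A549 and 54.9, 67.5 and 41.7 CPM in A549R (4.82 ± 0.31), which follows the list kind. Of the 13 called rises there, 9 did not.

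Chromosomes 6 and 9 leaned the same way with medians of 0.30 and 0.28, and 78.0% and 69.8% of their ends were above 0. Chromosome 19 leaned down: 1211 ends had a median of -0.14, 4 were called higher and 9 lower, and the chromosome held 10.3%, 11.2% and 10.3% of the counts in A549 and 8.27%, 8.40% and 8.75% in A549R. Chromosome 7 had a median of -0.17 over 1078 ends, with 3 called higher and 9 lower, and the 9 lay between 93555400 and 150778486. Chromosome 15 had a median of -0.18 over 803 ends, with 35.5% above 0, 1 called higher and 3 lower. Chromosome 13 hardly leaned, with a median of -0.04 and 45.1% of its ends above 0. There, 1 end was called higher and 6 lower, the latter between 20224139 and 73651683. On chromosomes 19, 7 and 13 the called ends with the smallest p were rises. Those at chromosome 19, 30447185 to 30447831, minus strand (3.16 ± 0.26), and chromosome 13, 101192068 to 101192529, minus strand (5.41 ± 0.21), follow the list kind. That at chromosome 7, 75398842 to 75399104, minus strand (2.40 ± 0.28), does not.

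**Figure D5:**
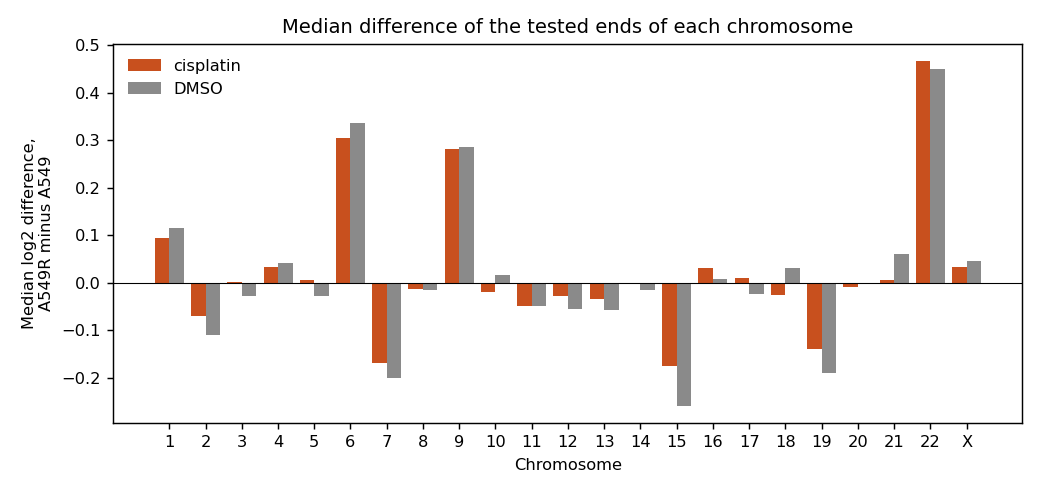
Median log2 difference (A549R minus A549) of the tested ends of each chromosome, under cisplatin (orange bars) and in DMSO (grey bars). Chromosomes 22, 6 and 9 are the highest and 15, 7 and 19 the lowest in both treatments.

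The mitochondrial share of counts was set beside these results as a measure of library composition. Of all listed counts, 13.7% ± 2.49 were mitochondrial in A549 and 7.95% ± 1.74 in A549R (SD, n = 3 each; exact permutation test, two-sided, p = 0.1, the smallest that 3 against 3 can give). Within the tested ends, which leave out what only long lists hold, the shares were 14.9% ± 2.63 and 13.7% ± 2.56 (exact permutation p = 0.7).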

How the data were processed

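Poly(A)+ RNA ends were measured by 3′-seq in 6 cytosol libraries of cisplatin-treated cells (3 of A549R, 3 of A549), and 12 further A549 and A549R libraries were set beside them. The authors deposited raw read counts per peak, as whole numbers without normalization, in 1 list per library, and the smallest count in each list was 5. Tools named without a role are bedtools 2.17.0, SAMtools 1.1 and Bowtie2 2.2.5, per the submitters' processing notes, which also name the mouse build mm9, whereas chromosome numbers and positions match human hg19. How peaks were called and filtered is not given in the sources used here.

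Peaks overlapping by at least 1 base on a strand were merged over the 6 lists, and each library's peaks were summed within a merged peak. Ends in all 6 lists were tested with edgeR 4.0.16 (R 4.3.3, limma 3.58.1; TMM, no covariates, quasi-likelihood F-test, Benjamini-Hochberg). Pairs were tested as an end-by-line interaction with a term for each library. DMSO and polysome levels were scaled within their own sets of 6. Library totals and list sizes are given in the report. The tests were checked on simulated data. Replicates of a group differed by more than sampling noise, so each counted as 1.

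Named ends were the 12 largest called rises and falls with groups apart, the 8 called ends of highest mean level, the 5 largest called pairs in each direction and, for chromosomes described as a block, the called end with the smallest p. Chromosome Y ends (3 calls) are not described. Members, lists and tests were chosen with earlier results of these data known. Alternatives were RLE scaling, DESeq2 1.42.0, a replicate block, each library left out, all 12 cytosol libraries, a mean count of at least 20, all peaks of mean count at least 5 with absent ones taken as 0, no ends that follow the list kind, merging within 50 bases, no mitochondrial ends, and partners within 20 kb. Ends made of 1 listed peak in every library, and pairs and DMSO ends without those that follow the list kind, were added after seeing the data. The gene-level test needs an hg19 annotation and was not run.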

Additional observations from a re-analysis of the deposited data

Results flagged for a closer look

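One value came from libraries outside the comparison. The end at chromosome 17, 4935893 to 4936195, minus strand, which leads the falls in A549R under cisplatin, had at least 79.3 CPM in each of the 3 cisplatin-treated A549 polysome libraries, while 1 of the 3 DMSO polysome libraries listed it, at 0.77 CPM. It was looked at again because this signal stands in data the comparison does not use and far above its vehicle controls. No test of cisplatin against DMSO was made for it here.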

How the results depend on the processing

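The 183 calls became 388 with DESeq2 (231 higher, 157 lower), 107 with ends made of 1 listed peak in every library (48 higher, 59 lower; chosen after seeing the data) and 27228 with every merged peak of mean count at least 5, absent peaks taken as 0 (25797 higher, 1431 lower), of which 25593 were at peaks that a whole group lacks. Leaving out 1 library gave 79 to 509. RLE scaling, a mean count of at least 20, all 12 cytosol libraries, merging within 50 bases and leaving out mitochondrial ends or those that follow the list kind gave 176 to 192. For upstream pairs (26), DESeq2 gave 46, all 12 libraries 10, a mean count of at least 20 gave 16, partners within 20 kb 17, no ends that follow the list kind 17, and leaving out 1 library 13 to 83. For DMSO (131), DESeq2 gave 413 and leaving out 1 library 29 to 681. The mitochondrial difference of -5.71 percentage points was -1.18 over tested ends, and -6.90 to -4.42 without 1 library. For the named ends no direction reversed: 569 recomputed values kept their call and 46 lost it. An end that did not enter a fit gave no value. Of the 45 named ends, 24 had a value with all 12 cytosol libraries and 24 with ends made of 1 listed peak. Without ends that follow the list kind, 27 had one. The causes were not tested, beyond fewer ends or libraries entering a fit.

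Same-numbered libraries of the lines correlated at 0.18, 0.15 and -0.01 in their deviations from the group means, and 2 of the 3 in each line correlated best with their own number, so the numbers were not taken as pairs. With the replicate number as a block, 193 ends, 56 upstream pairs and 357 DMSO ends were called. The gene-level comparison and its alternatives were not run. Ends near 5 counts in any library can drop out of its list, which limits what was tested to ends measured in all 6.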
